A study of Mus musculus with 4 samples.

Results

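The 10 genes described here mark the stroma of the testis, the tissue between and around the seminiferous tubules. They are a given list out of the 25824 gene symbols of the count tables, set by name with earlier results of these data known. Of these, 7 are matrix genes of interstitial fibroblasts (DCN, ADAMTS5, COL1A2, COL3A1, SPARC, SPARCL1 and OSR2), and 3 are contractile genes of the peritubular myoid cells (ACTA2, MYH11 and TAGLN). Single cell RNA-seq was performed on cell suspensions of testes from 2 WT mice (Ctcf wt/wt) and 2 Ctcf-cKO mice (Stra8-iCre-Ctcf f/Δ), each of which gave 1 library. The labels give the strain of every mouse as C56BL/6J and the age as 15 weeks, and the study's methods allow f/f and wt/f littermates among the WT mice. Mice carry the replicate number of their label, as WT 1, WT 2, Ctcf-cKO 1 and Ctcf-cKO 3. Stra8-iCre is active in germ cells from the start of meiosis, so the deletion is not aimed at the stroma in which these 10 genes are known to be expressed. The suspension was made by digesting the tubules with collagenase, passing them through a mesh and washing away erythrocytes, and the filtrates of 2 tubes were pooled for a Ctcf-cKO mouse. The mice are the replicates of every test.

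Fibroblasts of the interstitium secrete the collagen fibres and proteoglycans that hold the tubules, vessels and Leydig cells in place. Peritubular myoid cells form a thin sheet around each tubule and carry the smooth muscle proteins whose contraction moves sperm along the lumen. Both cell types share much of their matrix program, so that the actin and myosin of smooth muscle are the usual means of telling them apart. DCN encodes decorin, a small proteoglycan that binds collagen fibrils. COL1A2 and COL3A1 encode chains of the fibrillar collagens I and III, ADAMTS5 encodes a secreted protease of proteoglycans, and SPARC and SPARCL1 encode related secreted glycoproteins that bind collagen and calcium. OSR2 encodes a zinc finger transcription factor. ACTA2 encodes smooth muscle actin, MYH11 the smooth muscle myosin heavy chain, and TAGLN transgelin, an actin-binding protein.

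In GRCm38, DCN lies on chromosome 10 from 97479609 to 97518143 on the forward strand, and SPARC on chromosome 11 from 55394500 to 55423183 on the reverse strand. COL3A1 lies on chromosome 1 from 45311538 to 45349706 on the forward strand. RefSeq promoter windows on GRCm38.p6 were matched for 4 of the 10 genes, COL1A2, COL3A1, SPARC and ACTA2, and the 250 bases upstream of each start were searched on both strands. The COL3A1 window is shown because, of the 4, it alone touches no annotated exon. Its match to TATAAA is in capitals (chr1:45311288-45311537, forward strand).
COL3A1: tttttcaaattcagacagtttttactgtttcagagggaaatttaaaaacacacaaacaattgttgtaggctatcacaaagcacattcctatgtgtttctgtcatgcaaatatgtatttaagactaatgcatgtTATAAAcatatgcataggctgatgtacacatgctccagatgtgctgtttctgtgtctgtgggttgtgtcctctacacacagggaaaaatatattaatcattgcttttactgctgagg
The match begins 117 bases before the start, and 12.4% of the 32851 windows of this length held TATAAA. COL1A2 held a CCAAT, 109 bases before its start, which 33.8% of windows did. A match describes the letters of a window and no site of binding. The other 3 windows overlap annotated exons, by 127 of 250 bases for COL1A2, 217 for ACTA2 and 238 for SPARC, and are not printed. The CArG box, the letters bound by serum response factor in smooth muscle genes, was in 1.47% of all windows and not in these 4, which says little of the sequence before the starts since 3 lie largely in exons.

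The libraries held 1593546 to 6701235 counts, and both Ctcf-cKO libraries were shallower than both WT libraries. Cells were taken as barcodes with 200 to 7000 genes, at most 10% mitochondrial counts and at least 3 times the plateau count, which is the median count of the barcodes on the plateau below the cells when all are ranked by size. This gave 884 cells of 24403 barcodes, namely 109 and 260 in WT and 245 and 270 in the Ctcf-cKO mice. Barcodes with fewer than 200 genes were taken as free RNA, and the barcodes between these and the cells were kept apart. The numbers between were 4127 of 5603 in WT 1, and 1822, 82 and 23 in WT 2, Ctcf-cKO 1 and Ctcf-cKO 3. The plateau count was 1249.5 and 610 in WT 1 and WT 2, near the median of 1026 and 626 counts of their barcodes between. It was 345 and 238 in Ctcf-cKO 1 and Ctcf-cKO 3. The plateau thus lay largely between in the WT mice and under 200 genes in the Ctcf-cKO mice, so these sets are not alike by genotype. A barcode sequence was a cell in more than 1 library in 1 case, and no stromal barcode defined below was. CTCF had 110 and 49 counts in WT and 4 and 7 in the Ctcf-cKO mice.

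The matrix genes were detected in each library and were higher in the Ctcf-cKO mice. DCN was at 94.5 and 111 CPM, its counts scaled to the library total, over all barcodes of WT 1 and WT 2, and at 711 and 356 CPM in Ctcf-cKO 1 and Ctcf-cKO 3. SPARC was at 61.3 and 67.5 CPM in WT mice, and at 584 and 616 CPM in the Ctcf-cKO mice. SPARCL1 was at 23.1 and 9.67 CPM against 176 and 154 CPM. In these 3 genes both Ctcf-cKO mice lay above both WT mice, with a gap far wider than that within a genotype except for DCN, whose Ctcf-cKO mice differed between themselves.

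COL1A2 was at 20.3 and 9.67 CPM in WT mice, and at 140 and 108 CPM in the Ctcf-cKO mice. ADAMTS5 followed at 20.3 and 6.17 CPM against 76.9 and 62.1 CPM, and COL3A1 was at 6.57 and 2.06 CPM against 23.0 and 9.41 CPM. OSR2 was at 7.61 and 3.70 CPM in WT mice, and at 67.9 and 88.5 CPM in the Ctcf-cKO mice. The 2 genotypes did not overlap in any of the 7 matrix genes, a pattern that 32.3% of the genes tested also showed.

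The contractile genes gave a different picture, since they were close to absent in every library. ACTA2 had 4, 6, 7 and 7 counts in WT 1, WT 2, Ctcf-cKO 1 and Ctcf-cKO 3. MYH11 had 8, 5, 5 and 0 counts and TAGLN 17, 7, 6 and 0 counts in the same order. None of the 3 exceeded 4.39 CPM in a library. These counts were too few for the filter on low genes, so no genotype test was made for them. At this depth the libraries hold the fibroblast genes of the list and show next to nothing of the myoid genes.

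**Figure D1:**
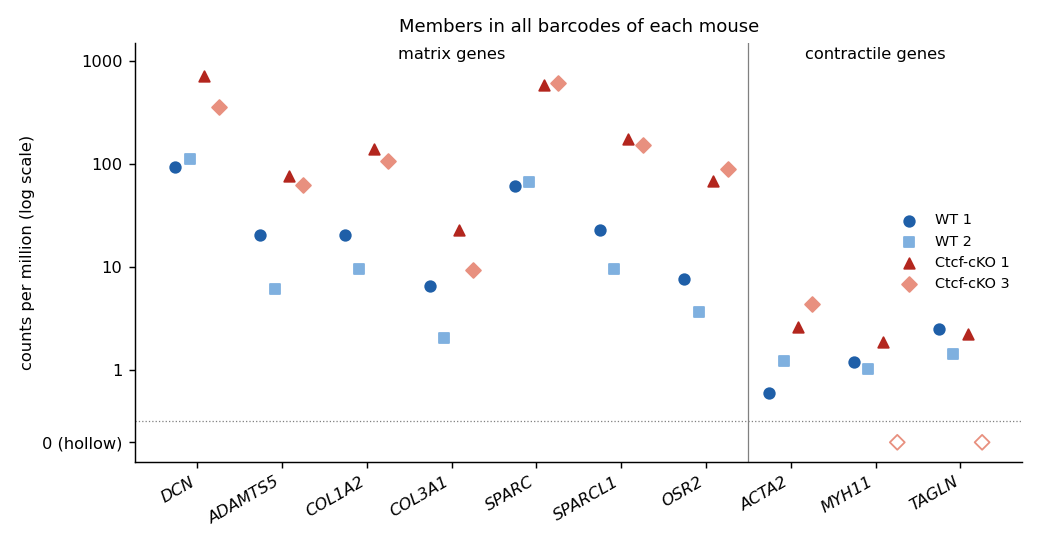
Level of each of the 10 genes in each mouse, in CPM over all barcodes on a log axis, with one point per mouse and hollow points at 0. For the 7 matrix genes both Ctcf-cKO mice sit above both WT mice, while the 3 contractile genes lie below 5 CPM in each mouse.

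The genotype difference was tested by the quasi-likelihood F test of edgeR on counts summed per mouse, with Benjamini-Hochberg adjustment over all genes tested and an adjusted p of 0.05. Over all barcodes the 7 matrix genes were called higher in the Ctcf-cKO mice, where 18.4% of the 14552 genes tested were called higher, 10.1% lower and 28.5% in either direction. A sum over a suspension cannot tell more cells of a type from more RNA per cell. OSR2 rose by a log2 fold change of 3.82 ± 0.39 (SE, adjusted p = 3.27e-05), SPARCL1 by 3.39 ± 0.34, SPARC by 3.28 ± 0.20 and COL1A2 by 3.11 ± 0.34. ADAMTS5 rose by 2.45 ± 0.44 and DCN by 2.44 ± 0.29. COL3A1 rose least, by 1.98 ± 0.64 (edgeR adjusted p = 0.037), and its call was lost in DESeq2 (adjusted p = 0.051), without WT 2 (0.10) and without Ctcf-cKO 1 (0.38). The median over all genes tested was -0.04.

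In cells alone, 6 of the 7 matrix genes were called higher, where 15.9% of the 11652 genes tested were called higher, 3.36% lower and 19.3% in either direction. OSR2 showed the widest difference, from 1.0 and 2.62 CPM in the WT mice to 70.9 and 112 CPM in the Ctcf-cKO mice, which is a log2 fold change of 5.43 ± 0.56. SPARC rose by 3.55 ± 0.31, COL1A2 by 3.29 ± 0.45, SPARCL1 by 3.0 ± 0.41 and DCN by 2.96 ± 0.36. ADAMTS5 rose by 2.21 ± 0.64 (edgeR adjusted p = 0.024). COL3A1 gave 1.58 ± 0.83 and was not called (edgeR adjusted p = 0.19). These calls leaned on Ctcf-cKO 3: without it 108 genes were called in place of 2245, and of the matrix genes DCN, SPARC and OSR2 remained, each with an adjusted p of 0.048.

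Barcodes with fewer than 200 genes, taken as free RNA, carried the difference too. They hold most of the plateau of the Ctcf-cKO mice but little of that of the WT mice, so this contrast compares unlike droplets. In barcodes with fewer than 200 genes, 6 of the matrix genes were tested and 5 were called higher, where 5.84% of the 7879 genes tested were called higher, 0.584% lower and 6.42% in either direction. SPARC was at 66.7 and 83.0 CPM there in WT and at 543 and 436 CPM in the Ctcf-cKO mice, which is a log2 fold change of 2.88 ± 0.39. DCN was at 38.1 and 130 CPM against 348 and 275 CPM, and rose by 1.84 ± 0.41. The WT 1 values rest on 7 counts of SPARC and 4 of DCN. Its barcodes under 200 genes held 104983 counts, against 1081040 in Ctcf-cKO 1, since most barcodes of WT 1 lay between. OSR2 gave 2.39 ± 0.75 and was not called (edgeR adjusted p = 0.057), and COL3A1 was not tested. Leaving out 1 Ctcf-cKO mouse left 2 (without Ctcf-cKO 1) or 3 (without Ctcf-cKO 3) of these 5 calls.

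**Figure D2:**
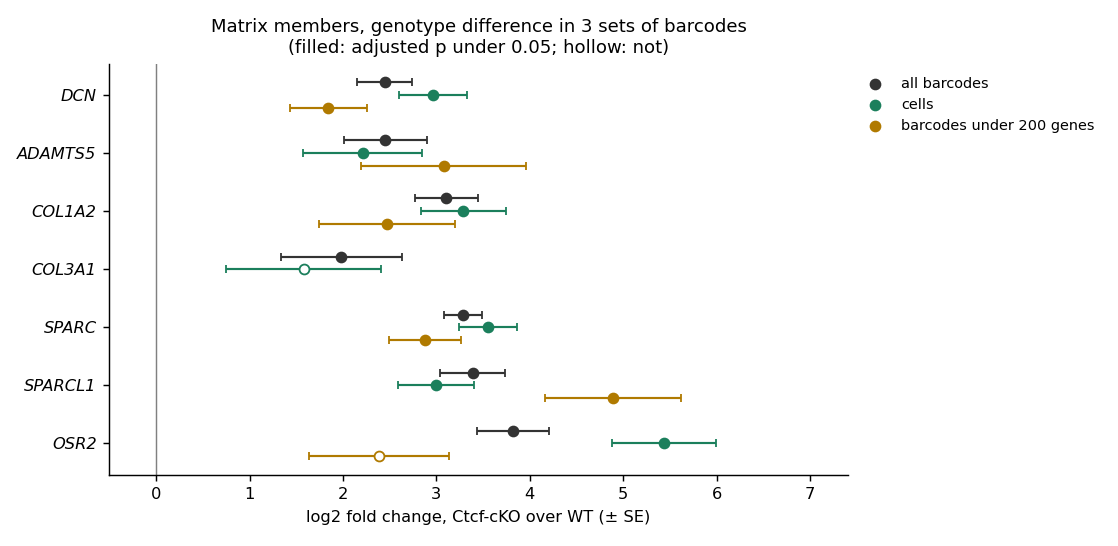
Log2 fold change of the 7 matrix genes, Ctcf-cKO over WT, with standard errors from edgeR over 2 mice per genotype, in all barcodes, in cells and in barcodes with fewer than 200 genes. Each value lies to the right of 0, and the hollow points, COL3A1 in cells and OSR2 in barcodes under 200 genes, did not pass an adjusted p of 0.05.

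Markers of other somatic cells moved with the matrix genes. Over all genes tested, 18.4% were called higher and 10.1% lower. The summed level of 8 Leydig genes was 196 and 22.6 CPM in the WT mice over all barcodes against 2489.6 and 2289.9 CPM in Ctcf-cKO mice, and 8 of 8 were called higher. Macrophage genes summed to 18.7 and 148 CPM against 1020.1 and 1289 CPM, with 9 of 10 called higher. Sertoli genes summed to 28.4 and 94.0 CPM against 519 and 604 CPM, with 9 of 9 tested called higher, and the 4 red blood cell genes tested were called higher as well. Of 10 spermatocyte genes 4 were called lower and none higher. Of 10 spermatid genes 3 were lower and 1 higher, not far from the 28.5% of all genes called in either direction. Of 10 immediate early and heat shock genes that respond to dissociation, 8 were called higher, with FOS at 32.5 and 9.47 CPM in WT and 101 and 106 CPM in the Ctcf-cKO mice. The part of these shifts in the matrix result was not tested.

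Other genes of the same programs were read off from lists fixed with the members, over all barcodes, where 18.4% of all genes tested were called higher. Among 24 other matrix genes 19 were tested, 9 were called higher and none lower, with a median log2 fold change of 1.28. TIMP3, an inhibitor of matrix proteases, rose by 5.26 ± 0.55, SERPINF1, a secreted anti-angiogenic factor, by 4.04 ± 0.32, and COL6A1, a chain of collagen VI, by 3.0 ± 0.69. COL1A1, the partner chain of COL1A2, was at 8.80 and 4.73 CPM in WT mice, and at 43.0 and 16.9 CPM in the Ctcf-cKO mice. FN1, the gene of fibronectin, was at 8.66 and 8.03 CPM against 4.90 and 4.39 CPM and was not called (log2 fold change -0.77). Of the 19 tested, 10 were not called.

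Among the genes that fold, trim and cross-link collagen, 6 of 10 tested were called higher and none lower, with a median of 2.08. The share called higher over all genes was 18.4%. PLOD1 and PLOD2, which hydroxylate collagen lysines, rose by 2.74 ± 0.69 and 2.59 ± 0.75, and P4HA1, a subunit of the prolyl hydroxylase, by 2.52 ± 0.66. The cross-linking enzyme LOXL1 was at 21.6 and 18.3 CPM against 20.7 and 11.9 CPM and was not called. Regulators and receptors of stromal cells were called higher in 7 of 7 tested, with a median of 2.66. NR2F2, a nuclear receptor of interstitial cells, rose by 3.25 ± 0.53, PDGFRA, a receptor of platelet-derived growth factor, by 3.20 ± 0.41, and OSR1, the paralog of OSR2, by 2.92 ± 0.44.

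Contractile genes beyond the 3 members were detected. Of 13 listed, 9 were tested, 7 were called higher and none lower, with a median of 2.31, where 18.4% of all genes tested were called higher. DES, the intermediate filament desmin, went from 1 count in each WT mouse to 10.6 and 11.3 CPM and rose by 5.80 ± 0.96. TPM2 and TPM1, which encode tropomyosins, rose by 3.53 ± 0.50 and 3.50 ± 0.45, while ACTG2, a smooth muscle actin, held between 488 and 627 CPM in the 4 mice with a log2 fold change of 0.04 ± 0.19. CNN1, the gene of calponin, had 5 and 11 counts in WT and none in the Ctcf-cKO mice. Of the TGF-beta pathway, a main inducer of matrix genes, 5 of 9 genes tested were called higher and none lower. The ligands TGFB1 and TGFB3 rose by 4.15 ± 0.90 and 2.63 ± 0.75 and the receptor TGFBR2 by 3.83 ± 0.63, while its partner TGFBR1 gave -0.34 ± 0.31.

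None of the 6 pericyte genes was high enough to test. Of 5 endothelial genes tested 1 was called higher, near the 18.4% of all genes tested. It was PECAM1, which rose by 3.68 ± 0.58 and which leukocytes express as well. VWF, an endothelial gene, was at 5.07 and 9.88 CPM in WT mice, and at 3.39 and 1.26 CPM in the Ctcf-cKO mice, and CLDN5 had at most 1 count in a library.

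To find the barcodes that hold these genes, a cell was called a stromal barcode where at least 3 of the 10 genes were detected and where the 10 genes together held at least 1% of its counts. The rule gave 2, 2, 6 and 8 stromal barcodes in WT 1, WT 2, Ctcf-cKO 1 and Ctcf-cKO 3, 18 of the 884 cells. The shares were 1.83% (95% Clopper-Pearson interval 0.223 to 6.47), 0.769% (0.0933 to 2.75), 2.45% (0.904 to 5.25) and 2.96% (1.29 to 5.75), and the intervals cover counting error only. The mean share was 1.30% ± 0.754 (SD, n = 2) in WT and 2.71% ± 0.363 (SD, n = 2) in the Ctcf-cKO mice. Both Ctcf-cKO mice lay above both WT mice, by 1.40 percentage points in the mean, and the exact two-sided permutation test gave p = 0.3333, the smallest that 2 against 2 mice allow. The limit for a cell differed, at 3748.5, 1830, 1035 and 714 counts in WT 1, WT 2, Ctcf-cKO 1 and Ctcf-cKO 3. The 8 stromal barcodes of Ctcf-cKO 3 held 761 to 2507 counts, and none would have been a cell in WT 1. The genotypes overlapped when 4 members were asked for, with WT 1 at 1.83% and Ctcf-cKO 1 at 1.63%, and when the members had to hold 2% of the counts, with WT 1 at 1.83% and Ctcf-cKO 3 at 1.48%.

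The count of such barcodes depended on the limit for a cell, above all in WT 1. With no plateau limit the rule was met by 24, 6, 8 and 9 barcodes in WT 1, WT 2, Ctcf-cKO 1 and Ctcf-cKO 3, of 4227, 2075, 327 and 293 barcodes. With 5 times the plateau count it was met by 0, 0, 3 and 5. WT 1 thus had the most barcodes of this kind in number. The share was 2.45% and 3.07% in the Ctcf-cKO mice against 0.568% and 0.289% in the WT mice. Most WT barcodes in that denominator lay under the cell limit, so these shares do not compare like sets. The 22 barcodes of WT 1 under the limit held 573 to 2311 counts, whereas a cell of that library held at least 3748.5. They carried 46.8% of the DCN counts of WT 1.

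All 18 stromal barcodes held DCN, and 17 held COL1A2. ADAMTS5 and SPARC were each detected in 13, SPARCL1 in 12, COL3A1 in 6 and OSR2 in 2. The matrix genes together reached 25383, 21046, 28097 and 19751 CPM in the stromal barcodes of WT 1, WT 2, Ctcf-cKO 1 and Ctcf-cKO 3, so that the genotypes overlapped. DCN alone was at 10598 and 13769 CPM in those of the WT mice and at 17867 and 7559 CPM in those of the Ctcf-cKO mice. These levels chose the barcodes and are a description. The richest barcode, in Ctcf-cKO 1, held 125 DCN counts of 2397, and its 10 genes made up 7.26% of its counts. Just inside the limit of 1% lay barcodes with 2.30, 1.15, 1.33 and 1.17%, one for each mouse, and the highest cells just outside held 0.758, 0.570, 0.854 and 0.962%.

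Stromal barcodes were small. Their totals ran from 761 to 10877 counts, and 16 of the 18 held less than the median cell of their own library. Spermatid genes held a median of 0.461, 5.30, 1.42 and 1.53% of their counts in WT 1, WT 2, Ctcf-cKO 1 and Ctcf-cKO 3, against 15.3, 11.2, 9.72 and 9.85% over all cells. The spread was wide, from 0.181 to 0.741% in WT 1, 1.06 to 9.53% in WT 2, 0.762 to 11.4% in Ctcf-cKO 1 and 0.472 to 7.65% in Ctcf-cKO 3. The highest spermatid share in WT 2 and in Ctcf-cKO 1 was that of the barcode with the lowest share of member counts. Leydig genes had no count in the WT stromal barcodes and 37 and 7 counts in those of Ctcf-cKO 1 and Ctcf-cKO 3. Of the 10 endothelial genes 1 count was seen in the 18 barcodes, that of PECAM1, and of the 6 pericyte genes none.

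Whether fibroblast and myoid genes go together in single barcodes could not be settled with so few contractile counts. The 18 stromal barcodes held 1140 counts of matrix genes and 0 counts of ACTA2, MYH11 and TAGLN among 46242 counts. A count of 0 allows up to 3 counts, or 64.9 CPM, where the matrix genes stood at 24653 CPM. The limit would be up to 4 times higher if a molecule gives 4 counts, as would the other limits given for a count of 0. Since no contractile gene exceeded 4.39 CPM in a library, the 0 does not show that stromal barcodes hold less of them than other barcodes. The 72 contractile counts of the 4 libraries lay in 34 of 24403 barcodes, at most 5 in one, and no barcode held 2 of the 3 genes. Of the 34 barcodes 8 also held a matrix gene. Among the 884 cells, 455 held a matrix gene, 14 a contractile gene and 6 both, and none of the 14 was a stromal barcode. No set of barcodes with smooth muscle actin and myosin together was found, so the label of peritubular cells could not be checked by these markers.

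Other contractile genes were present in the stromal barcodes. CALD1, encoding caldesmon, was detected in 7 of 18, ACTG2 in 6, FLNA in 5, and MYL9 and MYLK in 4 each. TPM1 was in 3, DES in 2 at 108 CPM and LMOD1, the gene of leiomodin of smooth muscle, in 1 at 86.5 CPM. Of the 13 listed, 8 were detected there, and 7 of these were higher in CPM than in the other cells. Of all 6045 genes detected in the stromal barcodes 4442 were higher as well, so 7 of 8 says little beyond detection. ACTG2 ran the other way, at 303 CPM in the stromal barcodes and 679 CPM in the other cells.

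Beside the members, genes were ranked by their ratio in stromal barcodes to other cells, not by how many counts they held. PRM1, a spermatid gene, held 544 counts in the stromal barcodes, against 578 of GSN. Among 119 genes with at least 10 counts in the stromal barcodes of both Ctcf-cKO mice, the 15 with the highest ratio to other cells were COL4A1, PLPP3, ECM2, LTBP4, CLEC3B, SERPINH1, NDN, ENTPD2, GSN, IGFBP6, HTRA3, IGFBP4, SERPING1, OGN and CAVIN1. LTBP4 tethers latent TGF-beta to the matrix, SERPINH1 is the collagen chaperone HSP47, OGN and ECM2 are matrix proteins, and IGFBP4 and IGFBP6 bind insulin-like growth factors. GSN, the gene of gelsolin, was in 17 of the 18 barcodes, at 21327, 9835, 12870 and 7478 CPM in WT 1, WT 2, Ctcf-cKO 1 and Ctcf-cKO 3 against 84.7, 85.6, 783 and 598 CPM in the other cells. The Ctcf-cKO mice ranked the genes, and in the WT mice 11 of the 15 were detected in the stromal barcodes of WT 1 and 12 in those of WT 2. The stromal barcodes of these mice hold 7643 and 5084 counts, so that a gene with any count there tends to stand higher than in other cells, and 65.5% and 58.0% of the 119 genes did.

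The small barcodes of WT 1 gave a further look. In its 22 barcodes under the cell limit, 15 of the 15 genes were detected and higher than in the other barcodes between, by log2 ratios of 4.40 for ECM2 to 8.01 for GSN, while 80.7% of the 119 genes were higher. GSN was in 22 of the 22 and SERPING1, an inhibitor of complement, in 19. DCN, which with the other members chose them, was in 22, SPARC in 19, COL1A2 in 15 and SPARCL1 in 13. OSR2 was in 8 of the 22, at 1136 CPM, while it was in none of the 2 stromal barcodes of WT 1 above the limit. ACTA2, MYH11 and TAGLN had no count, nor had the 8 Leydig, 10 Sertoli and 10 macrophage genes, while endothelial genes summed to 184 CPM, against 27.2 CPM over all barcodes of WT 1. The 22 barcodes held 32574 counts, and Sertoli and macrophage genes stood at 28.4 and 18.7 CPM over all barcodes of WT 1. Their 0, like that of the contractile genes, thus says little, and the 184 CPM rest on few counts. In the 4, 2 and 1 barcodes under the limit in WT 2, Ctcf-cKO 1 and Ctcf-cKO 3, 12, 8 and 1 of the 15 genes were detected.

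**Figure D3:**
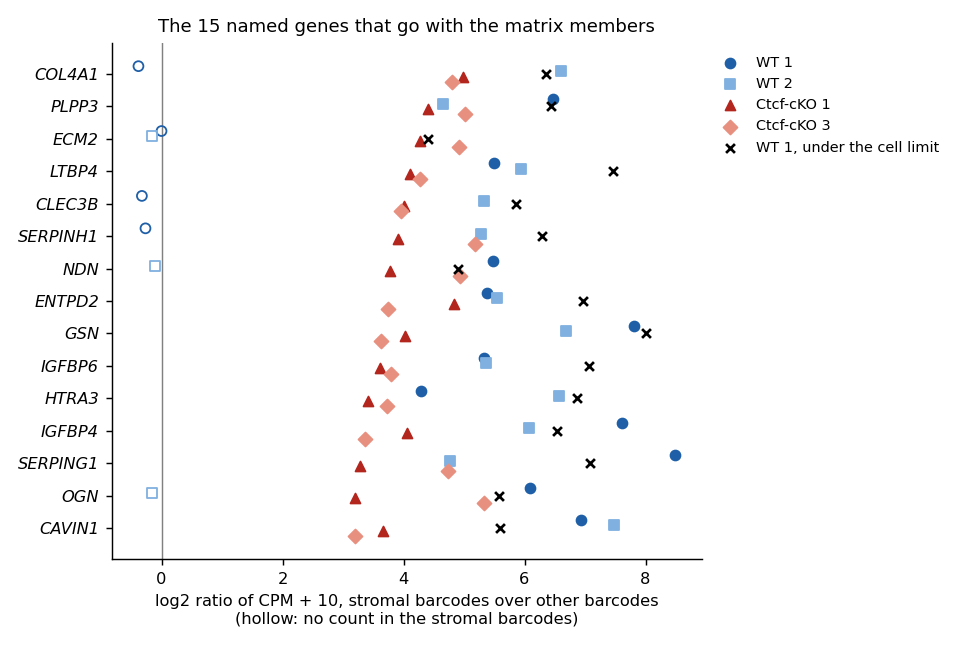
Log2 ratio of (CPM + 10) in the stromal barcodes to (CPM + 10) in the other cells for the 15 named genes, one point per mouse, with crosses for the 22 WT 1 barcodes under the cell limit against the other barcodes between. The Ctcf-cKO mice ranked the genes. The crosses run from 4.40 to 8.01, and the hollow points near 0 are WT genes with no count in the 2 stromal barcodes of that mouse.

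Of the fixed lists, 17 of 24 other matrix genes were higher in the stromal barcodes in CPM than in other cells, with a median log2 ratio of 3.40, where 20.0% of the 22216 genes with counts in cells were higher. MGP, matrix Gla protein, was in 11 of the 18 barcodes at 2292 CPM against 116 CPM in other cells, and LAMA2, a laminin chain of basement membranes, in 9 at 843 CPM against 14.7 CPM. FN1, POSTN, MMP2 and TIMP3 had no count in the 18, although TIMP3 was among the genes with the widest genotype difference. Regulators were higher in 8 of 11, with OSR1 in 6 barcodes at 800 CPM against 18.5 CPM and PDGFRA in 3 at 238 CPM against 17.1 CPM. Dissociation genes were higher in 8 of 11, with a median log2 ratio of 1.93. In these 3 lists each gene with a count in the stromal barcodes was higher there, namely 17, 8 and 8 genes. A single count in the 18 barcodes is 21.6 CPM, so for low genes being higher means little more than being detected. Of all 6045 genes with a count there, 4442 were higher. The stromal barcodes were chosen from the data, so these are descriptions.

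The matrix genes were also described by the kind of cell that held them. Cells in which a list of Leydig, Sertoli, macrophage or red blood cell genes held at least 1% of the counts were set apart, a division made after the values were seen, and 44, 4, 25 and 27 cells were led by them. SPARC was at 1746 CPM in the 5 Leydig-led cells of WT 1, at 2251 CPM in the 24 of Ctcf-cKO 1 and at 4203 CPM in the 15 of Ctcf-cKO 3, and WT 2 had no such cell. It was thus as high there as in the stromal barcodes, where it was at 2141 CPM over the 4 mice, and it was in 37 of the 44 cells. OSR2 was at 354 and 407 CPM in the Leydig-led cells of Ctcf-cKO 1 and Ctcf-cKO 3, and had no count in those of WT 1, which allows up to 138 CPM. DCN was at 369 CPM in those of Ctcf-cKO 1 and had no count in the other Leydig-led cells, with limits of 138 CPM in WT 1 and 55.5 CPM in Ctcf-cKO 3.

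Of the 44 Leydig-led cells, which the members did not choose except that stromal barcodes were set aside first, 32 held SPARC without DCN, 1 DCN without SPARC and 5 both. Of the 18 stromal barcodes, which the members chose, 13 held both and 5 DCN alone. DCN was held by 228 of the 884 cells. Of the 91 cells with COL1A2, 71.4% held DCN, and of those with ADAMTS5 and COL3A1 83.0% and 77.3% did. For COL1A2 this share ran from 50% in WT 2 to 100% in WT 1. The stromal barcodes, all with DCN, are 17, 13 and 6 of the cells with COL1A2, ADAMTS5 and COL3A1. The members chose these barcodes, so part of this closeness was set by the rule. Of the 294 cells with SPARC 40.5% held DCN. OSR2 was found with SPARC in 36 of its 56 cells and with DCN in 23. These shares rest on sparse counts in cells of unequal depth and are a description.

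**Figure D4:**
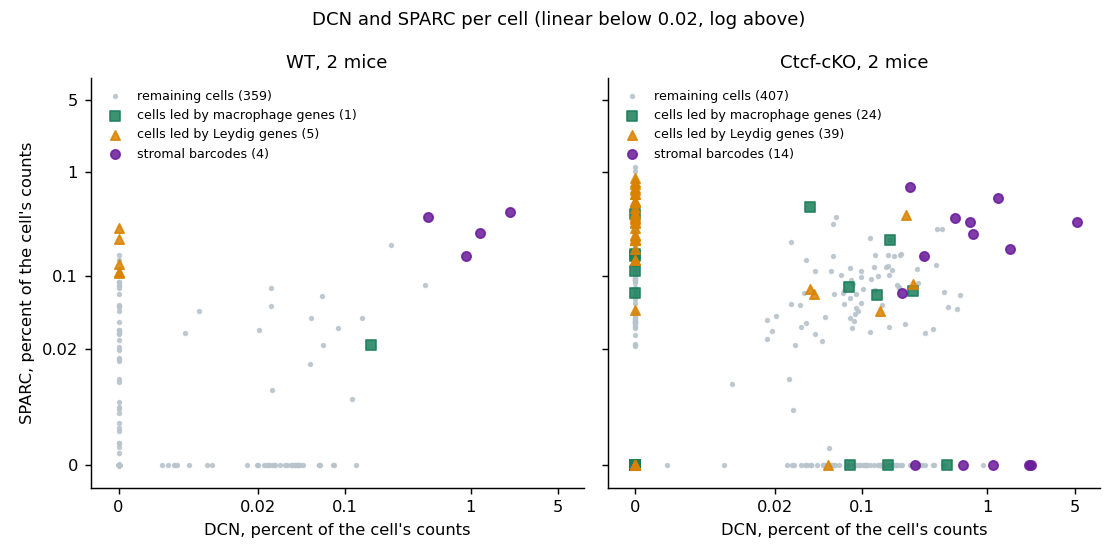
Share of each cell's counts that were DCN (x axis) and SPARC (y axis), in percent, linear below 0.02 and logarithmic above, for the WT and the Ctcf-cKO mice. Leydig-led cells stand mostly on the SPARC axis at 0 DCN, stromal barcodes lie to the right with DCN from 0.208 to 5.21%, and Sertoli-led and red-blood-cell-led cells are not drawn.

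Most counts of the matrix genes lay outside the stromal barcodes, which held 12.0% of them. In the Ctcf-cKO mice the remaining cells, those with none of the lists at 1%, held 49.1% of the DCN counts, and barcodes with fewer than 200 genes 23.7%. In the WT mice 59.8% of the DCN counts lay in the barcodes between, which hold most of the plateau of these mice. DCN was at 29.6 and 60.0 CPM in the remaining cells of WT 1 and WT 2 and at 794 and 304 CPM in those of Ctcf-cKO 1 and Ctcf-cKO 3. In the barcodes under 200 genes, taken as free RNA, DCN stood at 38.1, 130, 348 and 275 CPM. Only the remaining cells of Ctcf-cKO 1 were well above that set of their own library. In the barcodes between, where most of the WT plateau lay, DCN stood at 106 and 133 CPM in WT 1 and WT 2. SPARC in the remaining cells was at 31.6, 40.4, 405 and 477 CPM, against 66.7, 83.0, 543 and 436 CPM under 200 genes. It lay well below that set in both WT mice and nearer to it in the Ctcf-cKO mice. The free RNA values of WT 1 rest on 4 counts of DCN and 7 of SPARC. SPARC was detected in 221 of the 766 remaining cells, and the part of free RNA in this was not tested.

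In Ctcf-cKO 1, 29 cells that were no stromal barcodes held at least 10 DCN counts, against 3, 3 and 6 cells in WT 1, WT 2 and Ctcf-cKO 3. The highest held 128 DCN counts of 21252. These 29 cells held 52.2% of the DCN counts in the cells of that mouse, had a median total of 10431 counts and held spermatid genes at a median of 8.96% of their counts, close to the 9.72% of all its cells. Doublets were not called, and the part of droplets with more than 1 cell was not tested.

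**Figure D5:**
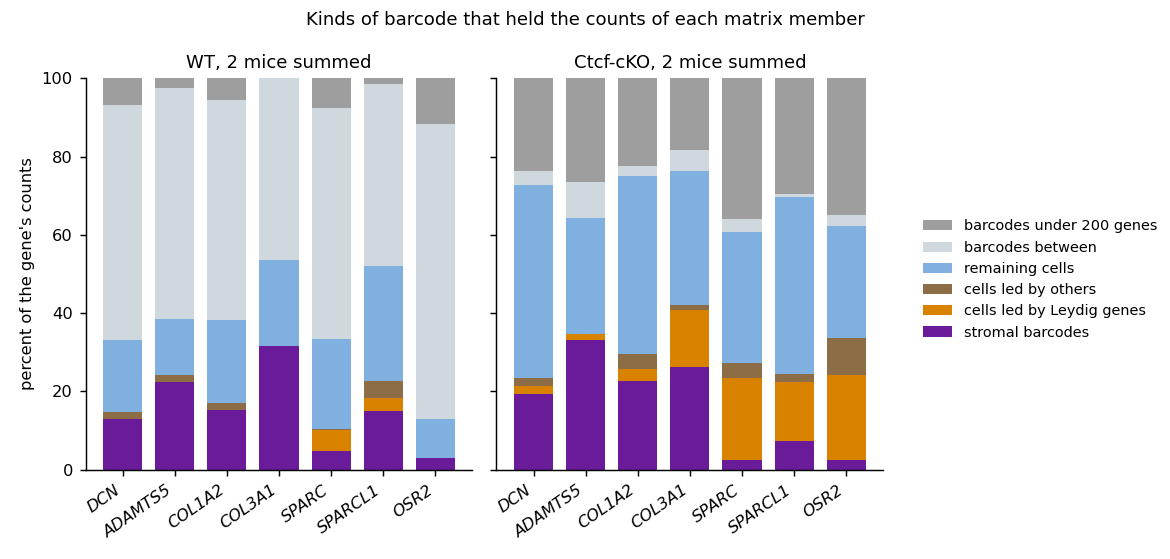
Percent of the counts of each matrix gene that lay in each kind of barcode, for the WT and the Ctcf-cKO mice, 2 mice summed, in bars that add up to 100%. In the WT mice most DCN counts, 59.8%, lay in the barcodes between, which hold most of the plateau of these mice but not of the Ctcf-cKO mice. In the Ctcf-cKO mice 49.1% lay in the remaining cells, and Leydig-led cells show for SPARC, SPARCL1 and OSR2.

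The genotype difference was also read without the stromal barcodes, which held 12.0% of the matrix counts over all barcodes. Since most matrix counts lay elsewhere, this cannot tell whether stromal cells carry the difference, which was not tested. With these 18 barcodes left out, the log2 fold changes over all barcodes were 2.35 for DCN, 3.32 for SPARC, 2.96 for COL1A2 and 3.84 for OSR2, each still called in edgeR, while COL3A1 gave 2.05 with an adjusted p of 0.074. In cells they were 3.31 for DCN, 3.73 for SPARC, 3.53 for COL1A2, 3.39 for SPARCL1 and 5.74 for OSR2, and ADAMTS5 was no longer called (edgeR adjusted p = 0.061).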

How the data were processed

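Testis suspensions of 2 mice of each genotype, WT and Ctcf-cKO, were measured by single cell RNA-seq. The authors barcoded cells on the ddSEQ platform, made libraries with the SureCell WTA 3′ kit, aligned reads to GRCm38, and deposited tables of raw counts, one for each mouse, with a line for each gene symbol and a column for each barcode. The counting tool and the merging of reads of one molecule are not given in the sources used here. Entries fell off above 4 in each table, so a molecule may give up to 4 counts. Entries equal to 4 made up 11.5 to 30.0% and those above 4 made up 9.74 to 15.6%.

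The sums of each mouse entered the quasi-likelihood F test of edgeR 4.0.16 (R 4.3.3) after filterByExpr and TMM scaling, with calls at a Benjamini-Hochberg adjusted p of 0.05 and the SE as the size of the log2 fold change over the square root of F. No label gives the batch of a library. The p-values rest on the spread between 2 mice per genotype, which edgeR moderates for each gene with information from all genes. CPM divides by the library total of the set of barcodes. Shares were compared by exact permutation in scipy 1.17.1. Doublets were neither called nor removed. Scripts were tested on simulated counts. Coordinates came from GENCODE vM21 for GRCm38.

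The members and lists were chosen with earlier results of these data known. Named genes were the members, up to 3 called genes per list and direction by size, and the 15 top genes of the stromal barcodes; FOS, COL1A1, FN1, LOXL1, ACTG2, CNN1, TGFBR1, VWF and CLDN5, the list genes singled out in the stromal barcodes and the look below the cell limit were chosen after values were seen, as were the Leydig-led division and counts divided by 4. Alternatives were DESeq2 1.42.0, other scaling and filters, other limits for cells and stromal barcodes, cells thinned to 714 counts, and each mouse left out.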

Additional observations from a re-analysis of the deposited data

How the results depend on the processing

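The direction of the matrix genes was the same under each alternative run, with none reversed. Of the values of single matrix genes under alternatives 184 kept their side of the threshold, 16 lost the call and 3 gained it. Over all barcodes 6 or 7 of the matrix genes were called under each alternative, and 1710 to 4444 genes in all with a mouse left out (1710 without Ctcf-cKO 1, 1989 without Ctcf-cKO 3, against 4150). In cells 3 to 7 matrix genes and 108 to 2947 genes were called with a mouse left out (3 and 108 without Ctcf-cKO 3, 1136 genes without Ctcf-cKO 1), 1267 genes where each library had to hold 10 counts of a gene and 3564 with no plateau limit, against 2245. ADAMTS5 also lost its call in cells with at least 500 genes (edgeR adjusted p = 0.11) and without Ctcf-cKO 1 (0.20). In barcodes with fewer than 200 genes 2 to 6 matrix genes and 132 to 1344 genes were called with a mouse left out, against 5 and 506; 770 genes were called without WT 1, 1344 without WT 2, 132 without Ctcf-cKO 1 and 164 without Ctcf-cKO 3. The cause was not tested, and the lone mouse of a genotype is assumed to vary like the others. Library totals alone moved the median of all genes in cells from -0.02 to 0.09 on the log2 scale. The mean share of stromal barcodes was higher in the Ctcf-cKO mice under each rule, by 0.440 (4 members) to 15.8 percentage points (no limit on the share of counts), and by 0.871 to 1.94 with a mouse left out, while their number ran from 8 (5 times the plateau count) to 113 (no limit on the share). With no plateau limit most WT barcodes in the denominator lay under the cell limit, so that share does not compare like sets. The genotypes overlapped with 4 members or 2% of the counts. A count of 0 in the stromal barcodes of a mouse allows 141 to 590 CPM, and up to 4 times this if a molecule gives 4 counts. No paired analysis was possible because the genotypes share only 1 replicate number.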
